A study of Homo sapiens with 2 samples.

Results

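The 10 genes described here encode proteins of the smooth-muscle contractile apparatus: the calponins CNN1 and CNN2, transgelin (TAGLN), caldesmon (CALD1), the smooth-muscle actins ACTA2 and ACTG2, the tropomyosins TPM1 and TPM2, the myosin regulatory light chain MYL9 and the PDZ-LIM scaffold PDLIM7. They were chosen by name from 19316 genes listed in at least 1 of the 2 deposited tables, because CNN1, TAGLN, MYL9 and CALD1 had been seen to be higher after FZD2 knockdown while TPM1 was not. The same comparison therefore chose them, and their values are a description without a test. All 10 were listed in both tables.

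RNA came from SNU449, an established human cell line labelled as liver cancer cells, although its growth protocol calls the cells prostate. One group was transduced with lentivirus expressing an shRNA against FZD2, a frizzled receptor for Wnt ligands, and the other with a negative control shRNA (shNC). Both were sampled after 7 days, and the labels do not say whether 1 or more hairpins were used, or whether the cells were selected or cloned. The first are called knockdown cells and the second control cells. Each group held 1 library, with 8234592 expected counts (estimated reads) for knockdown cells and 8436870 for control cells, so values carry no replicate error and no test was possible. FZD2 itself was at 15.76 FPKM (fragments per kilobase and sequencing depth) in knockdown cells and 59.45 FPKM in control cells, in the labelled direction. Its expected counts, 503.28 in knockdown cells and 1949.91 in control cells, were not whole numbers. Ratios are log2 of (FPKM + 1), FZD2 shRNA over control shRNA. Genes reaching 1 FPKM in either library are called measured, and a ratio of at least 2-fold, a log2 of 1, is called higher or lower. In bulk RNA, fewer cells expressing a gene and less of its RNA per cell cannot be told apart.

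In smooth muscle, myosin filaments pull on actin thin filaments once the regulatory light chain is phosphorylated, for instance by myosin light chain kinase. Tropomyosin lies along the thin filament, and caldesmon and calponin bind it and restrain the myosin motor. Many of these genes are switched on by serum response factor (SRF), which binds a DNA element called the CArG box with the help of myocardin or the myocardin-related factors MRTFA and MRTFB. In liver the same proteins mark myofibroblasts derived from stellate cells, and cultured tumour cells of mesenchymal character can carry several of them in stress fibres.

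Of the 10 genes, 7 passed the 2-fold limit on the higher side in knockdown cells and 0 on the lower side. Over all 14377 measured genes, 15.2% were higher and 7.41% lower by the same rule. The median log2 ratio was 1.08 over the 10 genes and -0.0042 over all measured genes. The direction of a gene across the transcriptome also moved with whether its expected counts were whole numbers. Counters that divide a read among several genes give counts that are not whole, and the part of such reads in the ratios was not tested. Of the 8 contractile genes with whole counts, 6 were higher and 0 lower, beside 4.19% higher and 10.2% lower among the 8154 measured genes with whole counts, whose median was -0.25. CNN2 and ACTA2 had counts that were not whole, as did 6223 measured genes, whose median log2 ratio was 0.48. Because the genes were chosen on this contrast, nothing is read from these shares.

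**Figure D1:**
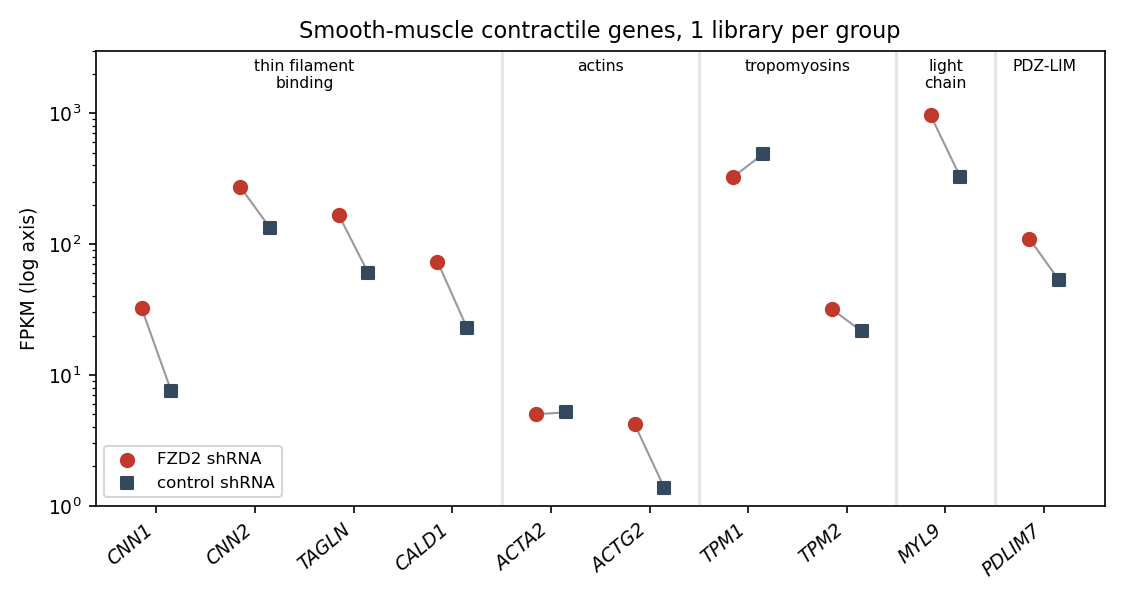
FPKM of each of the 10 genes in the FZD2 shRNA library (circles) and the control shRNA library (squares) on a log axis, 1 library per group, with no error bars because there are no replicates. MYL9 had the highest FZD2 shRNA level at 961.91 FPKM and ACTG2 the lowest at 4.18 FPKM, while TPM1 and ACTA2 are the pairs with the circle below the square.

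**Figure D2:**
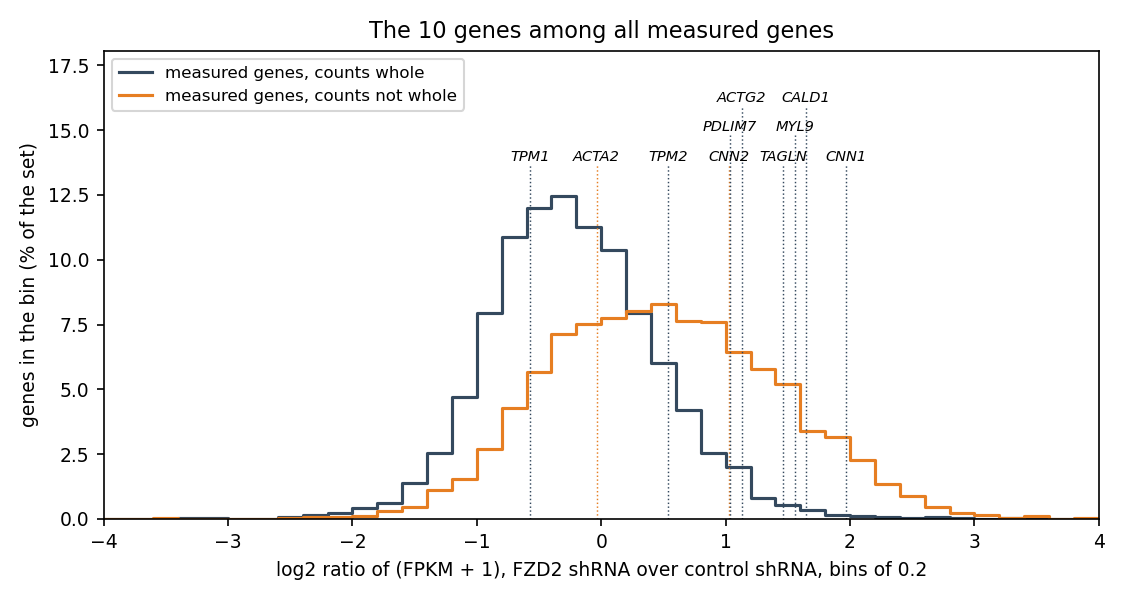
Share of measured genes in each bin of the log2 ratio of (FPKM + 1), FZD2 shRNA over control shRNA, drawn apart for 8154 genes with whole counts and 6223 genes with counts that were not whole. Dotted lines mark the 10 contractile genes, from TPM1 at -0.58 to CNN1 at 1.97, coloured by the set each belongs to.

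RefSeq promoter windows (build GRCh38.p14, 250 bases before to 50 after a transcript start) were in the reference for 8 of the 10 genes, and for MYL9 and TAGLN none was given. The CArG box was searched in them because it is the element SRF binds. The motif reads the same on both strands, so a match counts once for both. A consensus CArG box lay in 2 of 13 windows of these genes, beside 1.29% of 35116 windows of all genes. Allowing at most 1 G or C in the A/T core, 4 of the 13 windows held one, beside 8.13% of all windows. The 250 bases before the start are shown for ACTG2 and CNN2, which hold the consensus and were higher, and for ACTA2, which holds a pair of variant boxes and was not. Capitals mark the CArG boxes, and each line runs 5′ to 3′ on the gene's strand.
ACTG2, chr2:73892758-73893007, plus strand: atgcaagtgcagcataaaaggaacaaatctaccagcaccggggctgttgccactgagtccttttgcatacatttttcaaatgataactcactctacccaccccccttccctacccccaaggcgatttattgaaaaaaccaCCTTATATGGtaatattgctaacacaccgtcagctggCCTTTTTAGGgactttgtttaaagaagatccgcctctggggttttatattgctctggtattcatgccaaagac
CNN2, chr19:1026358-1026607, plus strand: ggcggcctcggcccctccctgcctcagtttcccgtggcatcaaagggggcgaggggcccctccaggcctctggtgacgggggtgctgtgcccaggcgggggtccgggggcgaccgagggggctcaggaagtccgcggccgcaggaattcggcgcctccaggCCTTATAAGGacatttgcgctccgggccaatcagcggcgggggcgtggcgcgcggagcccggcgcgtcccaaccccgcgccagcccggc
ACTA2, chr10:88952774-88953023, minus strand: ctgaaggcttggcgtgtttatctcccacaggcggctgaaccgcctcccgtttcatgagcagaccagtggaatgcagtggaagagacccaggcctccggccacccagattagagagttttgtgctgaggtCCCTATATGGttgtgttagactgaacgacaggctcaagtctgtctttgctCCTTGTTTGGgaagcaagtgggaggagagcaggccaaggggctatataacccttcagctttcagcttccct
The boxes of ACTG2 begin 110 and 73 bases before the start, that of CNN2 begins 89 bases before it, and those of ACTA2 begin 121 and 71 bases before it. One of 4 CALD1 windows held a variant box, and the windows of CNN1, TPM1, TPM2 and PDLIM7 held none. A match is a string of letters and not a measured binding site, and genes with and without one were found on both sides of the 2-fold limit.

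Of the 10 genes, CNN1 and CALD1, whose proteins bind and restrain the thin filament, had the highest ratios. CNN1, the smooth-muscle calponin, was at 32.44 FPKM in knockdown cells and 7.55 FPKM in control cells, a log2 ratio of 1.97. These values rest on 439 knockdown and 105 control expected counts, and the ratio of counts per library total was 2.10 on the log2 scale with a 95% counting interval of 1.79 to 2.42. CNN1 is among the most lineage-restricted of the 10, and its place in the order of levels was 2292 of 18303 listed genes in knockdown cells and 6888 of 18336 in control cells. CALD1, caldesmon, was at 73.38 FPKM in knockdown cells and 22.8 FPKM in control cells (log2 1.64), from 3085 knockdown and 918 control counts. Its count ratio was 1.78 on the log2 scale, with an interval of 1.68 to 1.89.

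CALD1 is spliced into a long smooth-muscle form and shorter forms of other cells. The files give 1 length per gene and library, an average over 5 transcripts for CALD1, which was 5035.91 bases in knockdown cells and 4697.53 bases in control cells, so that the knockdown length was 107.2% of the control length. The other 9 genes kept lengths between 96.21% (MYL9) and 103.4% (ACTG2) of the control length. The files do not say which transcripts carry the difference, since they hold no values per transcript.

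TAGLN, transgelin, an actin-bundling protein of the calponin family, was at 166.01 FPKM in knockdown cells and 59.71 FPKM in control cells (log2 1.46). It had 1594 knockdown and 589 control counts, with a count ratio of 1.47 on the log2 scale (1.33 to 1.61). At its 3′ end TAGLN lies opposite PCSK7, a proprotein convertase gene on the other strand, and 25.8% of the 50-base windows of TAGLN transcripts in GENCODE release 29 also lie in PCSK7 transcripts on the opposite strand. No strand setting is stated for the counting, so reads there cannot be told apart. PCSK7 was at 198 counts in knockdown cells and 274 in control cells, below TAGLN in both and in the other direction.

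CNN2, a calponin found in many cell types, was at 273.37 FPKM in knockdown cells and 133.64 FPKM in control cells (log2 1.03), from 5483.8 knockdown and 2847.28 control counts. Its call sat at the limit: the log2 ratio was 0.98 in CPM (expected counts scaled to the library total), 0.99 with TMM scaling and 0.72 with the trend in GC content taken out. The counting interval of its count ratio was 0.92 to 1.05.

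The smooth-muscle actins were the lowest of the 10. ACTG2, the enteric gamma actin, was at 4.18 FPKM in knockdown cells and 1.37 FPKM in control cells (log2 1.13). These are 46 knockdown and 15 control counts, so the counting interval of the count ratio was wide, at 0.78 to 2.60 on the log2 scale, and with a pseudocount of 5 FPKM the ratio was 0.53. ACTA2, the vascular alpha actin and the usual myofibroblast marker, was at 5.01 FPKM in knockdown cells and 5.17 FPKM in control cells (log2 -0.04), with 58.95 knockdown and 63.93 control counts and an interval of -0.62 to 0.45. A difference in ACTA2 was not detectable at this depth, and 1.5-fold differences in the lower direction lie inside the interval.

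ACTA2 is also the least certain of the 10 by sequence. ACTA2-AS1, a noncoding gene on the opposite strand, shares 30.1% of the 50-base windows of ACTA2 transcripts. It was at 7.42 FPKM in knockdown cells and 3.74 FPKM in control cells, from 125.28 knockdown and 64.89 control counts, so its level was above that of ACTA2 in knockdown cells and below it in control cells. Neither gene had whole counts, and without a known strand setting the reads of the overlap cannot be told apart.

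TPM1 and TPM2, which encode tropomyosins, had ratios of opposite sign. TPM1 was at 326.64 FPKM in knockdown cells and 487.12 FPKM in control cells (log2 -0.58), from 4932 knockdown and 7503 control counts, with a count interval of -0.62 to -0.52. TPM2 was at 31.72 FPKM in knockdown cells and 21.6 FPKM in control cells (log2 0.53), from 307 knockdown and 216 control counts, with an interval of 0.29 to 0.80. Neither gene reached 2-fold. Among the 14377 measured genes, 5111 had a counting interval wholly above 0 and 5288 one wholly below it, so such an interval is common here. TPM1 is transcribed from several starts into muscle and non-muscle forms, 12 transcripts in the deposited table, and its gene length was 100.7% of the control length. Opposite-strand transcripts of other genes hold 24.6% of the 50-base windows of TPM1 and 12.6% of those of CNN2, and as for TAGLN their reads cannot be told apart.

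MYL9, the regulatory light chain of smooth-muscle and non-muscle myosin II, was the most abundant of the 10 in knockdown cells. It was at 961.91 FPKM there and 325.67 FPKM in control cells (log2 1.56), from 8549 knockdown and 3094 control counts, with a count interval of 1.44 to 1.56. Its place in the order of levels was 71 in knockdown cells and 195 in control cells. MYL9 made up most of the difference in the summed level of the 10 genes, which was 1984.43 FPKM in knockdown cells and 1117.81 FPKM in control cells. PDLIM7, a scaffold that ties kinases and other proteins to actin filaments, was at 109.77 FPKM in knockdown cells and 53.18 FPKM in control cells (log2 1.03), from 1496 knockdown and 767 control counts. Like CNN2 it sat at the limit, at 0.99 in CPM, 0.98 with a pseudocount of 5 FPKM and 0.53 with the GC trend taken out.

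**Figure D3:**
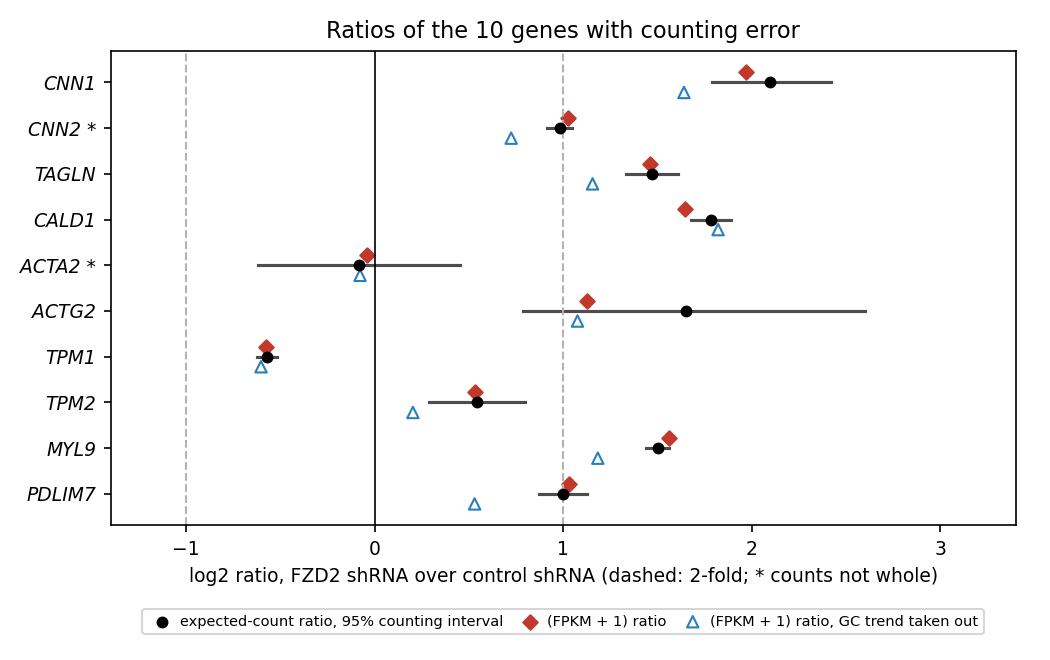
Log2 ratios of FZD2 shRNA over control shRNA for the 10 genes: expected counts per library total with 95% counting intervals (black), (FPKM + 1) (diamonds) and (FPKM + 1) with the GC trend taken out (open triangles). CNN1, TAGLN, CALD1 and MYL9 lie beyond 2-fold on all 3 measures, with triangles at 1.64, 1.16, 1.82 and 1.18, whereas the triangles of CNN2 and PDLIM7 lie at 0.72 and 0.53.

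Sequence composition moved with the ratios across the transcriptome, and the genes differ in it. GC content of the matched transcripts ran from 44.08% in CALD1 to 64.62% in PDLIM7. CNN1, CNN2, TAGLN, TPM2 and MYL9 were between 58.83% and 60.87%, and ACTA2, ACTG2 and TPM1 between 51.52% and 52.16%. CALD1, on the low-GC side, went against the trend: its log2 ratio was 1.82 with the trend taken out and 1.64 as deposited. With the trend taken out, 5 genes were still past 2-fold: CNN1 (1.64), CALD1 (1.82), MYL9 (1.18), TAGLN (1.16) and ACTG2 (1.08). On that measure 2010 of 13810 measured genes were higher and 977 lower, with a median log2 ratio of -0.099.

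Several of the 10 genes have non-muscle relatives that do the same work in other cells, and the make-up of these families differed between the libraries. The comparison uses the share of each gene in its family's summed FPKM, which no scaling between the libraries can alter. A share does not take out the GC trend or the difference between whole and not whole counts, which vary within a family. With the GC trend taken out, the log2 ratio was 1.18 for MYL9, -0.21 for MYL12A and 0.06 for MYL12B. On that measure CNN2 was at 0.72 and CNN3 at -0.67. MYL9 made up 60.8% of the regulatory light chain FPKM in knockdown cells and 31.6% in control cells, with MYL12A and MYL12B as the rest. As a share of the family's expected counts, MYL9 was 63.2% in knockdown cells (exact 95% binomial interval 62.4% to 64.0%) and 33.4% in control cells (32.4% to 34.4%). MYL12A was at 219.71 FPKM in knockdown cells and 290.18 FPKM in control cells (log2 -0.40), and MYL12B at 401.09 FPKM in knockdown and 415.05 FPKM in control cells (-0.05). Both have counts that are not whole, and MYL12A shares 5.22% of its 50-base windows with MYL12B.

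Among calponins, the difference was between CNN1 and CNN2 on one side and CNN3 on the other. CNN3, the acidic calponin of non-muscle cells, was at 58.65 FPKM in knockdown cells and 106.83 FPKM in control cells (log2 -0.85), between -1.0 and -0.67 over 8 alternative settings. Its share of calponin FPKM was 16.1% in knockdown cells and 43.1% in control cells. CNN1 took 8.9% in knockdown and 3.04% in control cells, and CNN2 75% in knockdown and 53.9% in control cells. Among transgelins, TAGLN took 30.5% of the FPKM in knockdown cells and 13.5% in control cells. TAGLN2, the form of non-muscle cells, was at 378.78 FPKM in knockdown and 383.4 FPKM in control cells, and TAGLN3, a neuronal form, was at 0.1 FPKM in knockdown cells and unlisted in control cells.

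Among tropomyosins, the FPKM shares of TPM1, TPM3 and TPM4 differed little between the libraries. That of TPM2 was small in both but differed more in proportion. TPM1 took 50.6% of the family's FPKM in knockdown cells and 55.3% in control cells, and TPM2 took 4.91% in knockdown and 2.45% in control cells. TPM3 was at 151.17 FPKM in knockdown cells and 197.33 FPKM in control cells (log2 -0.38), and TPM4 at 136.11 FPKM in knockdown and 174.28 FPKM in control cells (-0.35). TPM1, TPM3 and TPM4 kept a negative ratio under every alternative ratio setting that gave them a value, so that 3 of 4 tropomyosins were lower in level and TPM2 alone was higher, none by 2-fold.

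Smooth-muscle actins were a trace of all actin RNA. ACTA2 took 0.0535% of actin FPKM in knockdown cells and 0.0954% in control cells, and ACTG2 took 0.0446% in knockdown and 0.0253% in control cells. ACTB, the cytoplasmic beta actin, was at 8020.57 FPKM in knockdown cells and 4238.19 FPKM in control cells (log2 0.92), and ACTG1 at 1335.62 FPKM in knockdown and 1173.33 FPKM in control cells (0.19, or -0.01 with the GC trend taken out). Both have counts that are not whole. The striated-muscle actins ACTA1 and ACTC1 had at most 1 count in either library.

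In the PDZ-LIM family, PDLIM7 took 29.9% of the FPKM in knockdown cells and 20.0% in control cells. PDLIM5, its close relative, was at 75.87 FPKM in knockdown cells and 26.15 FPKM in control cells (log2 1.5, counts not whole). LDB3 was at 2.84 FPKM in knockdown and 0.66 FPKM in control cells (1.21, counts not whole, 0.47 with a pseudocount of 5 FPKM). PDLIM1, the most abundant member, was at 168.23 FPKM in knockdown cells and 179.73 FPKM in control cells (-0.09). PDLIM2 was at 9.08 FPKM in knockdown and 5.61 FPKM in control cells (0.61), and PDLIM3 and PDLIM4 stayed under 1 FPKM. The essential light chains MYL6 (1246.82 FPKM in knockdown and 967.47 FPKM in control cells, log2 0.37) and MYL6B (55.82 FPKM in knockdown and 51.84 FPKM in control cells, 0.10, or -0.27 with the GC trend taken out) completed the 19 relatives. Of these 19, 14 were measured, 2 were at least 2-fold higher (PDLIM5 and LDB3) and 0 lower, with a median log2 ratio of 0.04. Over all measured genes 15.2% were higher and 7.41% lower. LDB3 reached 1 FPKM in knockdown cells alone, so it could be called only on the higher side. With a filter of 5 FPKM 1 relative was higher, beside 1631 of 9806 genes. In CPM 1 of the relatives, CNN3, was lower, beside 1454 of all 14377 measured genes. With FPKM rescaled to an equal total in both libraries 3 relatives were higher, beside 2913 of all measured genes. Of the 3 measured relatives with whole counts, 0 were higher, beside 4.19% of all measured genes with whole counts.

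**Figure D4:**
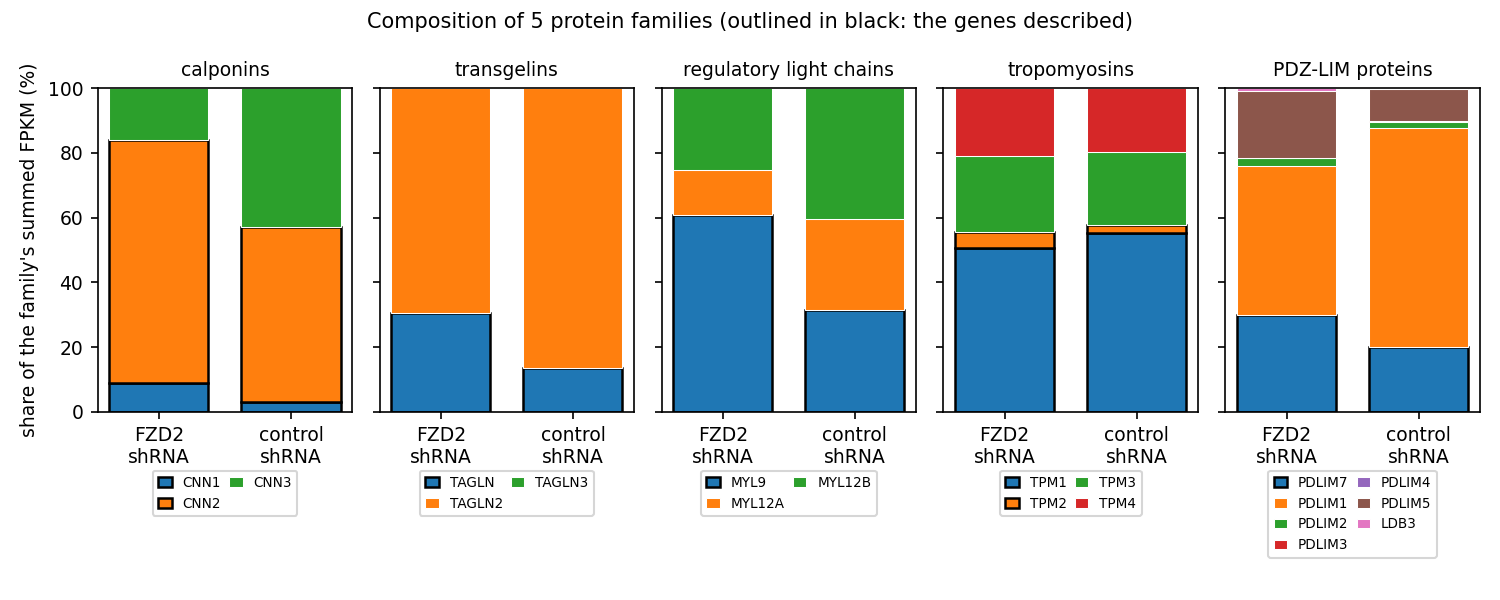
Share of each gene in the summed FPKM of 5 protein families, in knockdown cells (left bar of each pair) and the control shRNA library (right bar), 1 library per group. The genes described are outlined in black: MYL9 takes 60.8% in knockdown and 31.6% in control cells, and TAGLN 30.5% in knockdown and 13.5% in control cells. CNN2 takes 75% of the calponin bar in knockdown and 53.9% in control cells, and CNN1 8.9% in knockdown and 3.04% in control cells.

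Other smooth-muscle genes ran from unlisted to moderate levels. Of 15 such genes, 7 were measured. Beside 15.2% higher and 7.41% lower over all measured genes, 2 of the 7 passed 2-fold on the higher side and 0 on the lower. Their median log2 ratio was 0.15. NEXN, nexilin, an actin-binding protein of muscle and focal adhesions, was at 54.29 FPKM in knockdown cells and 17.07 FPKM in control cells (log2 1.61), from 1459 knockdown and 469 control whole counts. SYNPO2, an actin-bundling protein of smooth muscle, was at 3.29 FPKM in knockdown and 0.9 FPKM in control cells (1.17, counts not whole, 0.49 with a pseudocount of 5 FPKM). It reached 1 FPKM in knockdown cells alone, so it could be called only on the higher side. With a filter of 5 FPKM 1 gene of this list was higher, beside 1631 of 9806 genes. CSRP1, a LIM protein of smooth muscle, was at 67.82 FPKM in knockdown cells and 44.47 FPKM in control cells (0.60). MYLK, the myosin light chain kinase, was at 26.16 FPKM in knockdown and 23.43 FPKM in control cells (0.15), but its count ratio ran the other way, with 711 counts in knockdown cells and 950 in control cells, because the length given for it was 3268.42 bases in knockdown and 4731.73 bases in control cells.

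SMTN, smoothelin, a cytoskeletal protein of contractile smooth muscle, was at 12.79 FPKM in knockdown cells and 15.74 FPKM in control cells (log2 -0.28). SVIL, supervillin, which binds actin and myosin, was at 17.74 FPKM in knockdown and 22.33 FPKM in control cells (-0.32), and HSPB6, a small heat shock protein of muscle, at 5.68 FPKM in knockdown and 5.45 FPKM in control cells (0.05, or -0.39 with the GC trend taken out). MYH11, the smooth-muscle myosin heavy chain, was at 0.45 FPKM in knockdown cells and 0.42 FPKM in control cells. LMOD1, leiomodin, was at 0.45 FPKM in knockdown and 0.27 FPKM in control cells, DES, desmin, at 0.21 FPKM in knockdown and 0.05 FPKM in control cells, and KCNMB1, a potassium channel subunit of smooth muscle, at 0.15 FPKM in knockdown cells and unlisted in control cells. MYOCD, myocardin, was at 0.1 FPKM in knockdown cells and 0.01 FPKM in control cells, from 7 knockdown counts and 1 control count. MYH11, LMOD1, DES, KCNMB1 and MYOCD were thus under 1 FPKM in both libraries, while SMTN and MYLK, also genes of differentiated smooth muscle, were above it in both.

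Of the 15 genes for SRF, its cofactors and its antagonists, 11 were measured. Beside 15.2% higher and 7.41% lower over all measured genes, 0 of the 11 passed 2-fold in either direction. With a pseudocount of 0.1 FPKM, in CPM or with TMM scaling, 2 of them, KLF4 and MRTFB, passed it on the lower side. Over all 14377 measured genes, 1749, 1454 and 1395 did so on these settings. KLF4 and MRTFB reached 1 FPKM in control cells alone, so by FPKM they could be called only on the lower side. SRF itself was at 13.19 FPKM in knockdown cells and 8.31 FPKM in control cells (log2 0.61). The other 10 measured genes had negative ratios, although MRTFA and ELK4 were positive with FPKM rescaled to an equal total in both libraries, and ELK4 also with TMM scaling or the GC trend taken out. The list's median was -0.44. The coactivator MRTFA was at 11.8 FPKM in knockdown cells and 12.08 FPKM in control cells (-0.03), and MRTFB at 0.76 FPKM in knockdown and 1.79 FPKM in control cells (-0.66). KLF4, a repressor of smooth-muscle genes, was at 0.54 FPKM in knockdown and 1.66 FPKM in control cells (-0.79). FHL2, a LIM-only SRF cofactor, was at 26.23 FPKM in knockdown cells and 37.89 FPKM in control cells (-0.51), CSRP2 at 24.74 FPKM in knockdown and 28.56 FPKM in control cells (-0.20), and ELK3, a ternary complex factor that binds SRF, at 12.54 FPKM in knockdown and 17.96 FPKM in control cells (-0.49).

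Of 27 genes for the control of myosin phosphorylation and for non-muscle myosin heavy chains, 26 were measured. Beside 15.2% higher and 7.41% lower over all measured genes, 2 of the 26 passed 2-fold on the higher side and 1 on the lower. These counts moved with the scaling and the pseudocount: 6 were higher and 0 lower with FPKM rescaled to an equal total in both libraries, 3 higher and 2 lower in CPM or with TMM scaling, 4 higher and 2 lower with a pseudocount of 0.1 FPKM, and 1 higher and 1 lower with a pseudocount of 5 FPKM. The counts over all 14377 measured genes moved too. They were 2913 higher and 913 lower with FPKM so rescaled, 2432 and 1454 in CPM, and 2455 and 1395 with TMM scaling. With a pseudocount of 0.1 FPKM they were 2859 and 1749, and with 5 FPKM 941 and 301. Their median log2 ratio was -0.0027. PPP1R12A, the myosin-targeting subunit of myosin phosphatase, was at 45.91 FPKM in knockdown cells and 21.98 FPKM in control cells (log2 1.03), and MYLK3, a cardiac light chain kinase, at 11.46 FPKM in knockdown and 2.36 FPKM in control cells (1.89, counts not whole). CALM2, a calmodulin gene, was lower, at 247.16 FPKM in knockdown and 521.91 FPKM in control cells (-1.08, or -0.89 with the GC trend taken out), whereas CALM3, also a calmodulin gene, was at 193.49 FPKM in knockdown and 164.67 FPKM in control cells (0.23, or -0.02 with the GC trend taken out). The non-muscle myosin heavy chain MYH10 was at 57.57 FPKM in knockdown cells and 30.27 FPKM in control cells (0.91), and MYH9 at 126.39 FPKM in knockdown and 163.21 FPKM in control cells (-0.37).

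Of 24 genes for focal adhesion and actin-binding proteins, 24 were measured. Beside 15.2% higher and 7.41% lower over all measured genes, 2 of the 24 passed 2-fold on the higher side and 1 on the lower. Their median log2 ratio was 0.04. TGFB1I1, also called Hic-5, a paxillin relative of smooth muscle, was at 80.74 FPKM in knockdown cells and 27.81 FPKM in control cells (log2 1.5), from 1188 knockdown and 421 control whole counts. LPP, a zyxin relative abundant in smooth muscle, was at 46.11 FPKM in knockdown and 15.01 FPKM in control cells (1.56, counts not whole). CAPZA1, an actin capping protein subunit and the 1 gene called lower, was at 24.99 FPKM in knockdown cells and 51.56 FPKM in control cells (-1.02, or -0.83 with the GC trend taken out), and 0 genes of the list were lower with FPKM so rescaled, with a pseudocount of 5 FPKM or with the GC trend taken out. On these settings 913, 301 and 977 of all measured genes with a value were lower. The most abundant were the actin-monomer binders TMSB10 (9293.06 FPKM in knockdown and 5759.45 FPKM in control cells, 0.69) and TMSB4X (6070.93 FPKM in knockdown and 5970.26 FPKM in control cells, 0.02) and the actin-severing CFL1 (881.28 FPKM in knockdown and 773.52 FPKM in control cells, 0.19, or -0.12 with the GC trend taken out).

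**Figure D5:**
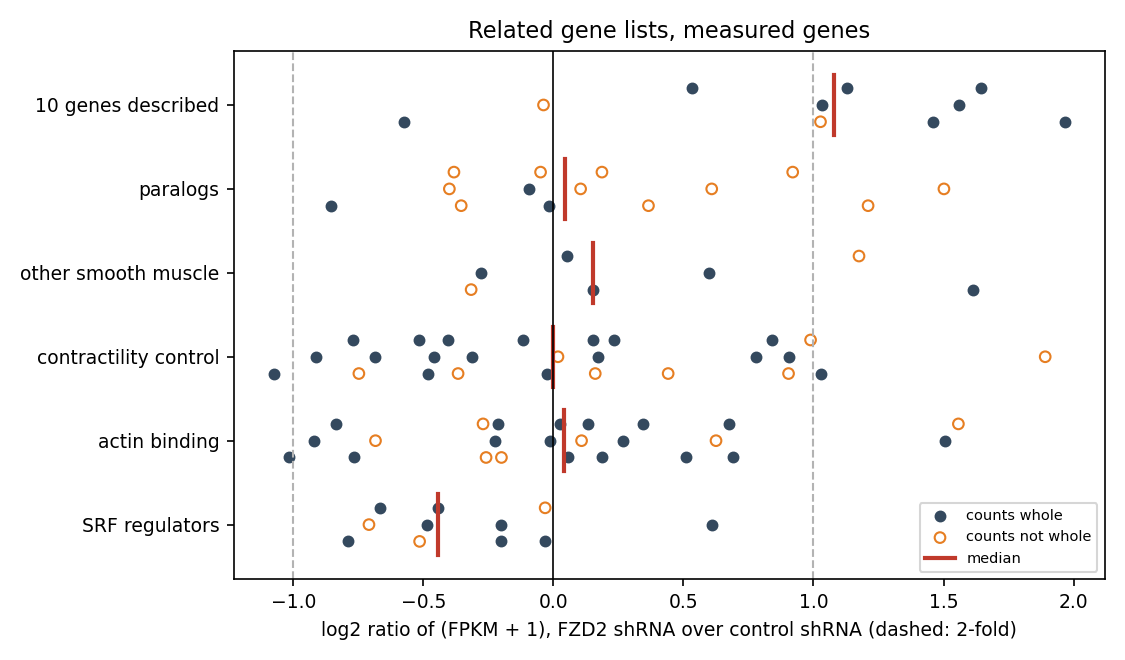
Log2 ratio of (FPKM + 1), FZD2 shRNA over control shRNA, for every measured gene of 6 lists, with whole counts (filled) or counts that were not whole (open) and the list median (red bar). The median of the 10 genes described is 1.08, that of their relatives 0.04, of other smooth-muscle genes 0.15, of contractility control genes -0.0027, of actin-binding genes 0.04 and of SRF regulators -0.44.

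Markers of other cell types that carry these genes were read in the same libraries. Of 16 fibroblast, stellate cell and pericyte markers, 11 were measured, and the summed level of all 16 was 410.16 FPKM in knockdown cells and 469.23 FPKM in control cells. Beside 15.2% higher and 7.41% lower over all measured genes, 1 of the 11 (ABCC9) was higher and 0 were lower. Of the 11 ratios, 6 were positive and 5 negative, with a median log2 of 0.03. COL1A2, a fibrillar collagen chain, was at 198.48 FPKM in knockdown and 306.36 FPKM in control cells (log2 -0.62), COL1A1 at 119.9 FPKM in knockdown and 100.13 FPKM in control cells (0.26) and ABCC9, a potassium channel regulator of pericytes, at 37.97 FPKM in knockdown and 12.05 FPKM in control cells (1.58, counts not whole). RGS5, a pericyte regulator of G-protein signalling, was at 20.21 FPKM in knockdown cells and 24.22 FPKM in control cells (-0.25), MCAM, an adhesion molecule of pericytes and endothelium, at 22.87 FPKM in knockdown and 14.38 FPKM in control cells (0.63, counts not whole), and LRAT, the retinol-esterifying enzyme of stellate cells, at 2.96 FPKM in knockdown and 1.32 FPKM in control cells (0.77, counts not whole). KCNJ8 was at 0.95 FPKM in knockdown and 2.54 FPKM in control cells (-0.86), so it reached 1 FPKM in control cells alone. It was past 2-fold lower in 3 of 8 alternative settings, and LRAT was past 2-fold higher in 4 of 7. COL3A1 (-0.40) and POSTN (-0.16) had negative ratios, and FAP (0.25) and THY1 (0.03) positive ones. The receptors and matrix proteoglycans PDGFRA (0.09 FPKM in knockdown and 0.07 FPKM in control cells), PDGFRB (0.13 FPKM in knockdown and 0.2 FPKM in control cells), DCN (0.07 FPKM in knockdown and 0.17 FPKM in control cells) and LUM (0.06 FPKM in knockdown and 0.33 FPKM in control cells) were near 0. Of 22 striated-muscle markers, 3 were measured: TNNT1, a slow skeletal troponin, at 223.07 FPKM in knockdown cells and 127.89 FPKM in control cells (0.80), TNNI3 at 5.59 FPKM in knockdown and 2.93 FPKM in control cells (0.75) and TNNC1 at 1.96 FPKM in knockdown and 3.12 FPKM in control cells (-0.48). The summed level of all 22 was 233.47 FPKM in knockdown and 135.21 FPKM in control cells, and 10 of the 22, MYOD1 and MYOG among them, were unlisted in both libraries. Of 6 endothelial markers, PECAM1 alone was measured, at 2.33 FPKM in knockdown and 0.41 FPKM in control cells (1.24, counts not whole, 133.02 knockdown and 24.11 control counts), and their summed level was 2.59 FPKM in knockdown and 0.61 FPKM in control cells. PECAM1 reached 1 FPKM in knockdown cells alone, so it could be called only on the higher side, and it was under a filter of 5 FPKM.

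Of 12 hepatocyte markers, 3 were measured, the fibrinogen genes FGG (123.36 FPKM in knockdown and 100.72 FPKM in control cells), FGB (105.3 FPKM in knockdown and 91.67 FPKM in control cells) and FGA (14.17 FPKM in knockdown and 12.43 FPKM in control cells). The markers' summed level was 244.69 FPKM in knockdown cells and 206.39 FPKM in control cells. ALB, albumin, was at 0.05 FPKM in knockdown cells and unlisted in control cells, and HNF4A, a hepatocyte transcription factor, was unlisted in knockdown cells and at 0.03 FPKM in control cells, so ALB and HNF4A were at or near 0 in both libraries. The part of any of these cell types in the ratios of the contractile genes was not tested.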

How the data were processed

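Poly(A) RNA of 2 SNU449 libraries, per the labels' protocols, was randomly primed, and sequenced on a BGISEQ-500 per the series design. The submitters' processing notes name HISAT, Bowtie2 and hg19 without versions or roles; the counter, its annotation and its strand setting are not stated there. The deposited expected count is an estimated number of reads per gene, not normalized, and the deposited FPKM value was divided by the authors by gene length and sequencing depth. Unlisted genes were set to 0. Symbols came from a RefSeq table (GRCh38.p14), and 53 measured genes had none.

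The measure was log2((FPKM + 1) / (FPKM + 1)) with a pseudocount of 1 FPKM, for genes at 1 FPKM or more in either library. With 1 library per group no test was possible. Counting intervals (95%) are exact conditional binomial intervals on expected counts rounded to whole numbers, over library totals, and exact (Clopper-Pearson) intervals for shares. They cover counting error only, since amplified reads are not independent molecules. A count of 3 is 3.64e-05% of the FZD2 shRNA total and 3.56e-05% of the control total. Counts were called whole to a tolerance of 0.001. The GC trend is a lowess fit (fraction 0.3) to genes with whole counts with GC content from transcripts of GENCODE release 29 that carry a listed RefSeq accession, taken out with the median of the trend kept. Shared windows are 50-base stretches of a gene's matched transcripts found in transcripts of another gene, on either strand. GENCODE may differ from the authors' annotation. TMM factors came from edgeR 4.0.16 in R 4.3.3.

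Members, lists and alternatives were chosen with earlier results of these data known. Genes named were FZD2, the 10 genes, their 19 relatives and, per list, genes past 2-fold and the 3 highest; further list genes were named after their values were seen, among them cofactors and cell type markers, and some list genes are not reported here. Alternatives were pseudocounts of 0.1 and 5, no filter and 5 FPKM, TPM, CPM, the median set to 0, TMM, the GC trend taken out, whole counts, and limits of 1.5-fold, 4-fold or an interval that excludes 1. The 2-fold limit and the counting interval were run on simulated independent Poisson counts. These hold no replicate variation, GC trend or divided reads, so they cannot check the rules against those. Scripts ran in Python 3.11.15 (SciPy 1.17.1 for intervals, statsmodels 0.14.6 for lowess, pandas 2.3.3, NumPy 2.4.6, matplotlib 3.10.9).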

Additional observations from a re-analysis of the deposited data

How the results depend on the processing

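CNN1, TAGLN, CALD1 and MYL9 were past 2-fold under all 8 alternative ratio settings, CNN1 at 1.58 to 2.17 on the log2 scale, TAGLN at 1.16 to 1.62, CALD1 at 1.5 to 1.82 and MYL9 at 1.18 to 1.72. ACTG2 was past it in 7 of 8, PDLIM7 in 5 of 8 and CNN2 in 4 of 7. ACTA2, TPM1 and TPM2 were past it in none, and ACTA2 alone changed sign, at 0.10 in TPM, FPKM rescaled to an equal total in both libraries. Among these settings, keeping only whole counts leaves a gene's ratio as it was. Setting the median to 0 moved CNN1 only from 1.968 to 1.972. CNN1, TAGLN, CALD1 and MYL9 were also the genes seen to be higher when the 10 were chosen. The median of the 10 genes was 1.26 with a pseudocount of 0.1 and 1.30 in TPM, beside -0.0051 and 0.14 over all measured genes. It was 0.90 with the GC trend taken out, beside -0.099, and 1.29 on genes with whole counts, beside -0.25. With a limit of 4-fold 0 of the 10 were higher, and by a counting interval that excludes 1 TPM1 made 1 lower. FZD2 was at -1.63 with a pseudocount of 5 and -2.36 with the GC trend removed. Among all measured genes, 1749 were lower with a pseudocount of 0.1, 941 higher and 301 lower with 5, 342 higher among whole counts, 3747 higher and 3117 lower at 1.5-fold, 382 and 59 at 4-fold, and 5111 and 5288 by the counting interval. No paired analysis was possible because each group had 1 library. The main limits are the lack of replicates, the unknown strand setting for ACTA2, TAGLN, TPM1 and CNN2, and few counts for ACTG2 and ACTA2.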
